A study of Mus musculus with 9 samples.

Results

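The retinoid pathway was followed through 9 genes in embryonic mouse orofacial tissue, which forms the face and the palate. They were the synthesis genes Aldh1a1, Aldh1a2 and Aldh1a7, the carrier genes Rbp4, Crabp1 and Crabp2, and the receptor genes Rara, Rarg and Rxra. Genes were taken by symbol: every probe set that the array annotation assigns to 1 of these symbols alone was included, whatever its values. That gave 11 probe sets for the 9 genes, out of 8251 genes with such a probe set, because Aldh1a1 and Rxra had 2 each. Total RNA was hybridised to 9 one-colour oligonucleotide arrays, with 3 arrays each for gestation days (GD) 12, 13 and 14. No treatment, mutation or transgene is named for any day. Strain, sex, pooling of embryos and the exact pieces of tissue taken are not given in the labels used here. Whether arrays of the same day stand for different litters is not stated either, so p-values measure the spread between these arrays, which may be technical.

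Retinoic acid is made from vitamin A, first by oxidation of retinol to retinaldehyde and then by retinaldehyde dehydrogenases. Retinol travels in blood on a carrier protein, and inside cells other small proteins bind retinol and retinoic acid. Retinoic acid acts on genes through pairs of nuclear receptors, a RAR with an RXR, and both too little and too much of it are known to cause cleft palate in mice.

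Between GD14 and GD12, 3 of the 11 probe sets rose (Aldh1a1, Aldh1a7 and Rbp4), 1 fell (Aldh1a2) and 7 did not pass the test. Of all 9316 probe sets tested in that comparison, 4.30% changed, 3.24% upward and 1.06% downward. The 9 genes were chosen with earlier results of these data known, so setting these shares side by side does not test the pathway. The changes lay among the synthesis genes and the blood carrier, and no probe set of a receptor gene or of the cellular retinoic acid binding proteins passed. The test was limma on log2(intensity + 3) over all 9 arrays, and an adjusted p (Benjamini-Hochberg over the 9316 probe sets) under 0.05 counted as changed. With the replicate number as a block, the same 4 members passed, while the count over all probe sets was 621 against 401 without it. The median log2 difference of the 11 probe sets was 0.13, and that of all tested probe sets was -0.02.

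A sign of RNA and labelling quality, the ratio of 3′ to 5′ actin control signal, moved with the days too. On GD12, GD13 and GD14 it was 1.54, 2.09 and 2.44 for replicate 1 and 1.76, 2.23 and 2.29 for replicate 2. For replicate 3 it was 1.42, 1.25 and 1.37, so the later days were higher in replicates 1 and 2 but not in replicate 3. With this ratio and the replicate block in the fit, Aldh1a1 still rose between GD14 and GD12 (log2 3.66, adjusted p = 0.0121 by limma). The calls of Aldh1a7, Aldh1a2 and Rbp4 were lost. Most calls on the array were lost in that fit, as 94 of all probe sets passed, against 401 in the main fit.

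The 3 synthesis genes encode retinaldehyde dehydrogenases or a close relative, and their upstream sequences are shown because these genes moved in different directions. The sequences are the 250 bases before an annotated transcript start, taken from RefSeq on GRCm38.p6 and written 5′ to 3′ on the gene's strand. For Aldh1a1 the window lies before the second of 2 annotated starts. Capitals mark, in Aldh1a1 and Aldh1a7, the runs of at least 10 bases that are identical in both windows, and in Aldh1a2 the octamer ATGCAAAT and the box CCAAT.
Aldh1a1, chr19:20601718-20601967, plus strand: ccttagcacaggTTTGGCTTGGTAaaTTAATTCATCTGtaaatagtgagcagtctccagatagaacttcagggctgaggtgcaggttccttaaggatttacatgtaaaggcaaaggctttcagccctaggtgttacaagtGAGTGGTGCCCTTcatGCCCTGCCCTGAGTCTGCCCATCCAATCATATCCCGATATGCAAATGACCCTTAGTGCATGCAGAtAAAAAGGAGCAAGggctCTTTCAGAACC
Aldh1a7, chr19:20727557-20727806, minus strand: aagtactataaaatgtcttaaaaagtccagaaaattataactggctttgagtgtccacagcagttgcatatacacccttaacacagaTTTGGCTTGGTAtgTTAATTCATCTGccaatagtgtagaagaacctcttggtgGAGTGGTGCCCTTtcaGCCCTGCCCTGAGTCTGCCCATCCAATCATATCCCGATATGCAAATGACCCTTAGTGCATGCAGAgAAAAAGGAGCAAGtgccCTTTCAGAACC
Aldh1a2, chr9:71215539-71215788, plus strand: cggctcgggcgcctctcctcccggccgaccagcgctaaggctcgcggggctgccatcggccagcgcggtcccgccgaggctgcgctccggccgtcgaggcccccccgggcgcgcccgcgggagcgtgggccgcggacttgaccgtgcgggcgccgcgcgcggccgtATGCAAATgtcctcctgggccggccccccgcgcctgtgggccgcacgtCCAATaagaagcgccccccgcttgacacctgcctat
Of the last 95 bases before the start, 91 were the same in Aldh1a1 and Aldh1a7. The longest shared run had 65 bases, and among all windows of the table it occurred in these 2 genes only. Aldh1a1 and Aldh1a7 are neighbours on chromosome 19, with 0 annotated genes between them.

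The octamer starts 56 bases before the start in Aldh1a1 and Aldh1a7 and 84 bases before it in Aldh1a2. The window before the first start of Aldh1a1 held neither the octamer nor CCAAT. No other window of a member held the octamer, and its copies in Aldh1a1 and Aldh1a7 lie within the shared run of 65 bases. Those copies are therefore not separate occurrences. Over all windows, the octamer occurred on either strand in 526 of 32536 (1.62%). CCAAT, which the octamer does not overlap in the 3 windows shown, occurred in 33.8%. The Aldh1a2 window was 77.6% G or C, against 46.4% in Aldh1a1 and 43.2% in Aldh1a7. AGGTCA, the core of many nuclear receptor sites, occurred on either strand in 14.0% of all windows. Among the 15 windows of the 8 members in the table, it was found before the second start of Rxra, once on each strand, and before the first start of Rarg. Such matches describe letters and do not show that a factor binds. Aldh1a1 and Aldh1a7 are also similar genes, and whether a probe set of one responds to the transcript of the other was not tested, since probe sequences were not used here.

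**Figure D1:**
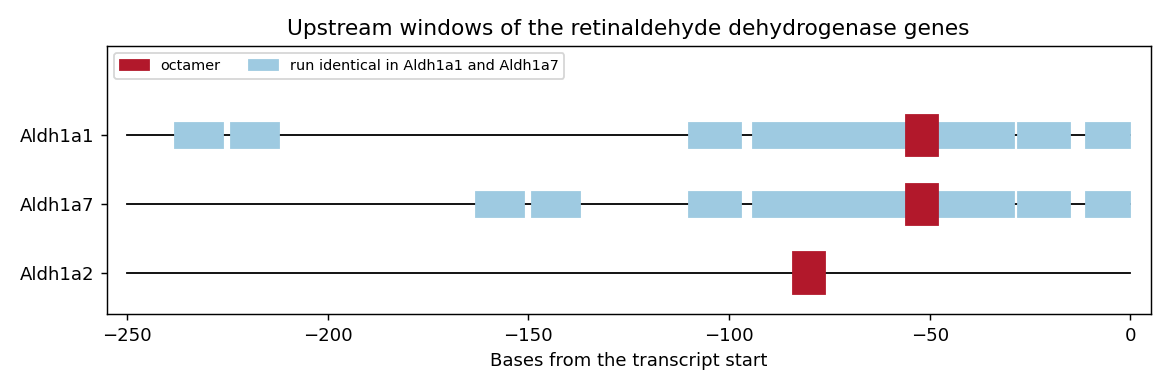
Positions, in bases from the transcript start, of the octamer and of the runs shared by Aldh1a1 and Aldh1a7 in the upstream windows of the 3 synthesis genes. The shared runs fill most of the last 95 bases in Aldh1a1 and Aldh1a7, and the octamer lies 56 bases before the start in both and 84 bases before it in Aldh1a2.

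Aldh1a1, which oxidises retinaldehyde to retinoic acid and also acts on other aldehydes, rose on each later day. Its probe set 100068_at had intensities of 11.3, 14.0 and 12.0 on GD12, then 75.6, 72.2 and 65.5 on GD13, then 229, 185 and 204 on GD14 (replicates 1 to 3). All 3 arrays of each later day lay above all 3 of the day before, with no overlap. Day means were 12.4 ± 1.40, 71.1 ± 5.14 and 206 ± 21.9 in day order (SD, n = 3 each).

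The log2 difference of this probe set between GD14 and GD12 was 3.76 (SE 0.15, 95% interval 3.41 to 4.10, adjusted p = 1.63e-05 by limma), a 13.5-fold rise. It had the smallest p of all 9316 probe sets in that comparison and the 4th highest log2 difference. The fold is on the scale with 3 added: it was 15.4 with 1 added and 9.24 with 11 added, because GD12 values lay close to the intensity of 10.4 under which probe sets were left out. The call stayed with each of the 9 arrays left out in turn, the highest adjusted p being 0.000341.

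Between GD13 and GD12, Aldh1a1 was the only 1 of the 11 probe sets to pass, where 0.644% of all probe sets did (0.569% upward and 0.0751% downward). It rose 4.81-fold (log2 2.26, SE 0.15, adjusted p = 0.0004 by limma). Between GD14 and GD13 it was again the only member to pass, where 0.0429% of all probe sets did (0.0322% upward and 0.0107% downward), 4 in number. It rose 2.81-fold (log2 1.49, SE 0.15, adjusted p = 0.0214 by limma). The other 3 probe sets, named after their values were seen, were those of Col1a1 and Fmod, which encode matrix proteins and rose, and of the embryonic globin Hbb-y, which fell. This daily step passed in 2 of the 9 omissions of an array, and its adjusted p was 0.162 without GD13 replicate 2, the highest of these. It was 0.125 with the actin control ratio and the replicate block in the fit, 0.0582 without the filter on low values and 0.0977 with only the arrays of the 2 days.

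The second probe set of Aldh1a1, 161956_at, did not follow the first. Its intensities were 9.8, 28.0 and 15.5 on GD12, then 14.9, 32.7 and 24.7 on GD13, then 11.9, 17.4 and 14.0 on GD14. All 3 days overlapped, and replicate 2 was the highest array on each of them. The log2 difference between GD14 and GD12 was -0.17 (SE 0.35, 95% interval -0.97 to 0.63, adjusted p = 0.865 by limma). Over the 9 arrays the correlation between both probe sets was -0.08, so the account of Aldh1a1 rests on 1 of its 2 probe sets.

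Aldh1a7, a close relative of Aldh1a1 in rodents, was also higher on the later days. Probe set 94778_at had intensities of 11.2, 18.9 and 28.7 on GD12, then 43.8, 59.3 and 45.1 on GD13, then 76.6, 55.3 and 55.3 on GD14. GD12 lay below both later days without overlap, while GD13 and GD14 overlapped. It rose 3.02-fold on GD14 relative to GD12 (log2 1.59, SE 0.29, 95% interval 0.94 to 2.25, adjusted p = 0.0176 by limma). Between GD13 and GD12 the log2 difference was 1.28 (SE 0.29, adjusted p = 0.12) and did not pass, and between GD14 and GD13 it was 0.32 (SE 0.29, adjusted p = 0.909).

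The Aldh1a7 call between GD14 and GD12 depended on the fit. It was lost without GD12 replicate 2 (adjusted p = 0.0538), without GD14 replicate 1 (0.0755), without GD14 replicate 2 (0.0506) and with only the arrays of the 2 days (0.0561). With the actin control ratio and the replicate block, the log2 difference was 0.83 (adjusted p = 0.161).

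Aldh1a2, the main enzyme that makes retinoic acid in the early mouse embryo, went the other way. Probe set 101707_at had intensities of 128, 112 and 134 on GD12, then 92.4, 100.9 and 81.7 on GD13, then 70.5, 59.0 and 63.0 on GD14. As for Aldh1a1, no 2 days overlapped, but here each later day was lower. Day means were 125 ± 11.1, 91.7 ± 9.62 and 64.2 ± 5.84 in day order (SD, n = 3 each).

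The level fell on GD14 to 0.527 of that on GD12 (log2 -0.92, SE 0.15, 95% interval -1.27 to -0.58, adjusted p = 0.012 by limma). Neither daily step passed alone: the log2 difference was -0.43 (adjusted p = 0.335) between GD13 and GD12 and -0.49 (adjusted p = 0.449) between GD14 and GD13. The GD14 call was lost without GD12 replicate 1 (adjusted p = 0.0523), without GD14 replicate 2 (0.0506) and with the actin control ratio and the replicate block (0.0892, with a log2 difference of -1.10). As these are whole tissue samples, fewer cells of a type and less RNA per cell cannot be told apart for any of these genes.

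**Figure D2:**
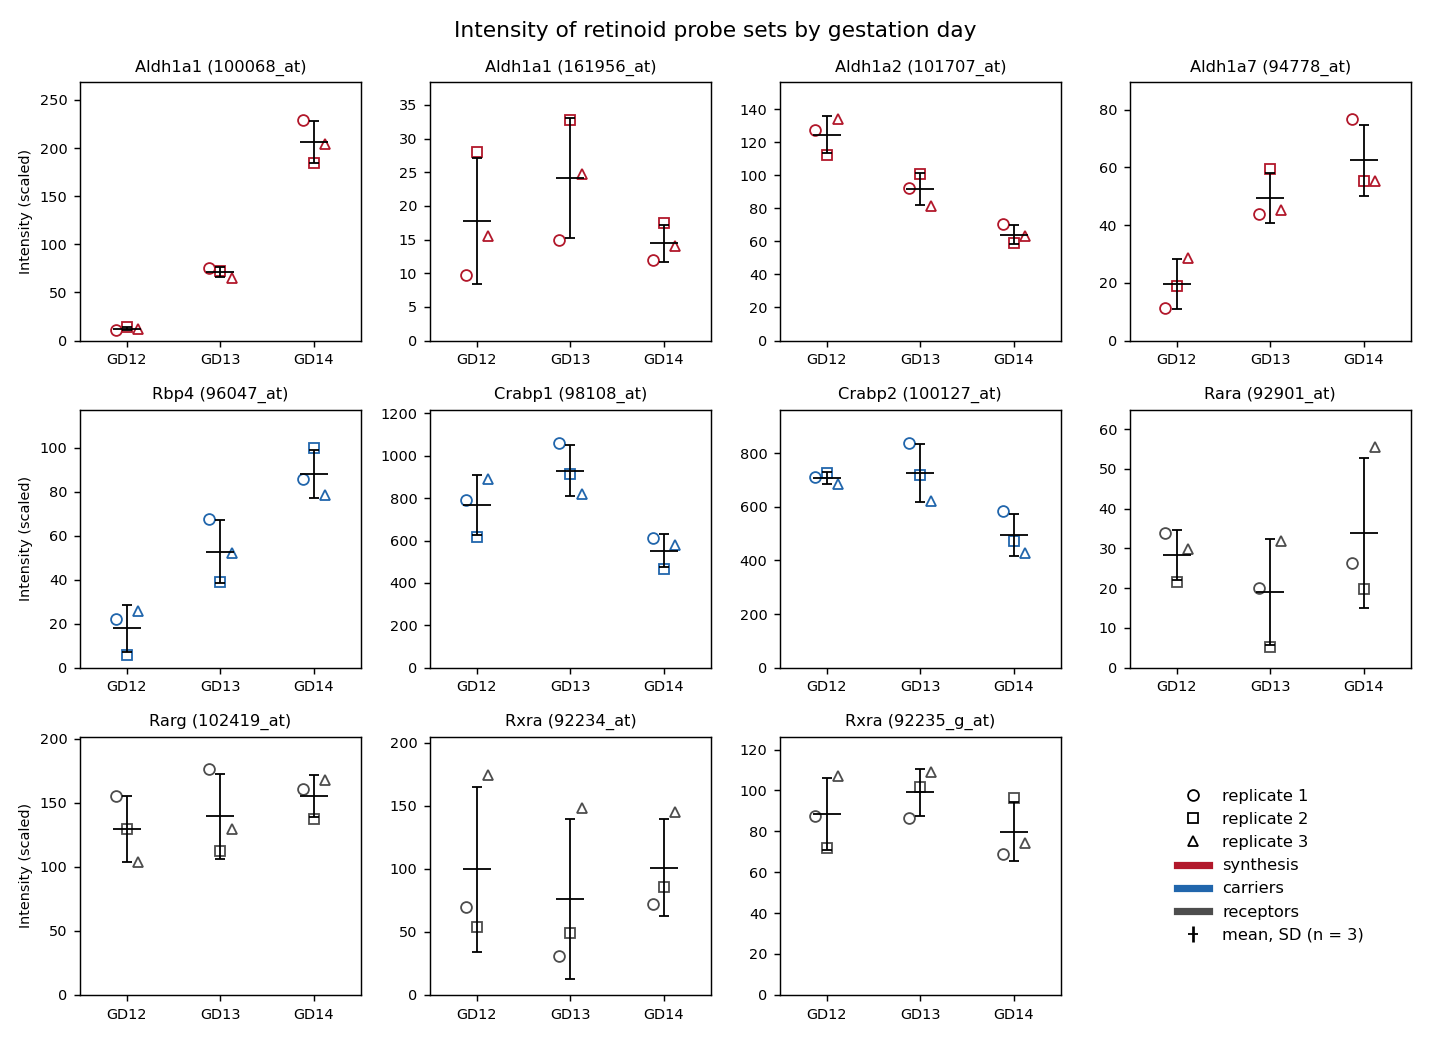
Scaled intensity of each of the 11 probe sets on GD12, GD13 and GD14, each panel with its own axis from 0; symbols are arrays by replicate number, bars are the mean and SD (n = 3). Aldh1a1 (100068_at) and Rbp4 separate all 3 days upward and Aldh1a2 downward, while the receptor probe sets overlap between days. How often days separate in this way over all probe sets was not counted.

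Rbp4, the carrier of retinol in blood, rose. Probe set 96047_at had intensities of 22.0, 5.8 and 25.8 on GD12, then 67.6, 38.8 and 51.9 on GD13, then 85.8, 100 and 78.6 on GD14. No 2 days overlapped, and GD12 replicate 2 was the lowest array. The rise on GD14 relative to GD12 was 4.90-fold (log2 2.29, SE 0.42, 95% interval 1.35 to 3.24, adjusted p = 0.0172 by limma). With 1 added in place of 3 the fold was 5.50, and with 11 added it was 3.61. The call was lost without GD14 replicate 1 (adjusted p = 0.0661), without GD14 replicate 2 (0.0674), with only the arrays of the 2 days (0.052) and with the actin control ratio and the replicate block (0.194). Neither daily step of Rbp4 passed: the log2 difference was 1.56 (adjusted p = 0.184) between GD13 and GD12 and 0.73 (adjusted p = 0.821) between GD14 and GD13.

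Rbp4 is made in quantity by liver and yolk sac, so 15 marker genes of those tissues were summed per array. The sums were 167 to 179.8 on GD12, 172 to 300.0 on GD13 and 141 to 262 on GD14, which overlap. Of the 15 genes, 9 on GD12, 8 on GD13 and 10 on GD14 averaged at or under the filter intensity, 0 were listed at 0 on every array of a day, and 0 of the 6 tested changed in any comparison. Aldh1a1 is also abundant in lens and retina, whose 10 markers summed to 119.5 to 213 on GD12, 156 to 214 on GD13 and 167 to 348 on GD14. GD14 replicates 1 and 2 stood apart with 302 and 348, above the other 7 arrays, and GD14 replicate 3 had 167, within the range of GD12. The lens gene Crygd (104171_f_at), named after its values were seen, had 71.1 and 75.3 on the first pair and 11.2 on replicate 3. Its other probe set, 162268_at, did not follow: it had 2.3, 15.4 and 7.4 on the GD14 arrays and was highest on GD12 replicate 2 (48.1). On GD14, replicates 1 to 3 of Cryaa had 54.5, 56.8 and 20.2, and those of Cryab (162308_f_at) 57.2, 65.2 and 38.2. Cryba1, under the filter and not tested, had 32.7, 34.3 and 1.8. In these genes, named after their values were seen, GD14 replicates 1 and 2 lay above all other arrays. The second Cryab probe set (93279_at) did not follow, nor did Bfsp1, Mip, Rax, Six6 and Crx. Crygc stayed at 3.1 or less. On those same GD14 arrays Aldh1a1 (100068_at) had 229, 185 and 204 (replicates 1 to 3). Of the 6 lens and retina genes tested, 0 changed by limma, and 0 did at an unadjusted p under 0.05. The part of liver or yolk sac in the Rbp4 result was not tested, nor was that of lens or retina in the Aldh1a1 result.

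Crabp1 and Crabp2 encode the cellular retinoic acid binding proteins, and neither passed in any comparison. Crabp1 (98108_at) had intensities of 793, 614 and 892 on GD12, then 1058, 912 and 821 on GD13, then 613, 464 and 579 on GD14. Crabp2 (100127_at) had 711, 726 and 685 on GD12, then 839, 719.7 and 620.2 on GD13, then 583, 473 and 429.5 on GD14. For both, the 3 GD14 arrays lay below all arrays of the other days. The margin was small for Crabp1, with GD14 replicate 1 at 612.8 and GD12 replicate 2 at 614.3. How often days separate in this way over all probe sets was not counted, here or for the other genes.

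The log2 difference between GD14 and GD13 was -0.75 for Crabp1 (95% interval -1.20 to -0.31, adjusted p = 0.332 by limma) and -0.55 for Crabp2 (95% interval -0.95 to -0.15, adjusted p = 0.46). Set against GD12, the GD14 difference was -0.46 for Crabp1 (95% interval -0.91 to -0.02, adjusted p = 0.263) and -0.52 for Crabp2 (95% interval -0.92 to -0.13, adjusted p = 0.155). These intervals, which are for single probe sets and not adjusted, leave out 0, and the adjusted tests did not pass. Between GD13 and GD12 the differences were 0.29 for Crabp1 and 0.03 for Crabp2, with adjusted p of 0.648 and 0.971.

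**Figure D3:**
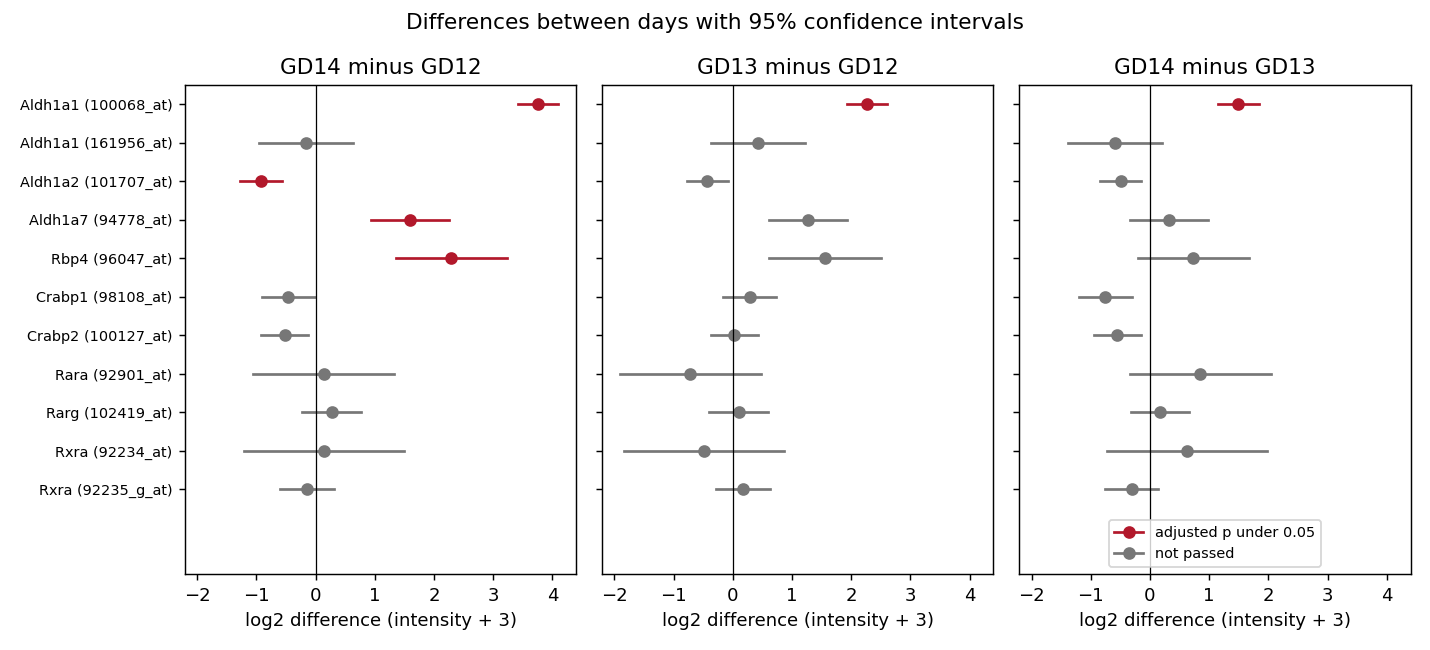
Differences in log2(intensity + 3) between days for the 11 probe sets, with 95% intervals of the limma fit (9 arrays); filled red marks an adjusted p under 0.05. Between GD14 and GD12, Aldh1a1, Aldh1a7 and Rbp4 lie above 0 and Aldh1a2 below it; in both daily steps only Aldh1a1 passed.

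The receptors showed no change that passed. Rara (92901_at), which encodes retinoic acid receptor alpha, had intensities of 34.0, 21.6 and 29.8 on GD12, then 20.0, 5.3 and 32.0 on GD13, then 26.4, 19.9 and 55.5 on GD14. Rarg (102419_at), for receptor gamma, had 155, 129.7 and 104 on GD12, then 176, 112.5 and 129.5 on GD13, then 161, 137 and 168 on GD14. All days overlapped for both. The log2 difference between GD14 and GD12 was 0.13 for Rara (95% interval -1.06 to 1.32, adjusted p = 0.934 by limma), so a change of about 2-fold in either direction is within its interval. For Rarg it was 0.27 (95% interval -0.22 to 0.76, adjusted p = 0.593).

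Rxra encodes retinoid X receptor alpha, the partner in the receptor pair, and its probe sets differed in how the replicates spread. Probe set 92234_at had 70.1, 53.7 and 175 on GD12, then 30.9, 48.9 and 148 on GD13, then 72.5, 85.3 and 145 on GD14. Replicate 3 was the highest array on every day, at 2.83, 3.72 and 1.84 times the mean of replicates 1 and 2 on GD12, GD13 and GD14. Probe set 92235_g_at had 87.5, 71.7 and 107 on GD12, then 86.7, 101.6 and 109 on GD13, then 68.9, 96.2 and 74.2 on GD14, with ratios of 1.34, 1.16 and 0.899 for replicate 3. The spread of 92234_at followed the replicate number, and that of 92235_g_at followed it less.

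Replicate 3 arrays also had the lowest actin control ratio of each day. The ratio was 1.25 to 1.42 on the 3 replicate 3 arrays, against 1.54 to 2.44 on the other 6. Its part in the Rxra spread was not tested. Between GD14 and GD12 the log2 difference was 0.14 for 92234_at (95% interval -1.21 to 1.49, adjusted p = 0.938 by limma) and -0.14 for 92235_g_at (95% interval -0.60 to 0.31, adjusted p = 0.79). The interval of 92234_at was the wider one.

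**Figure D4:**
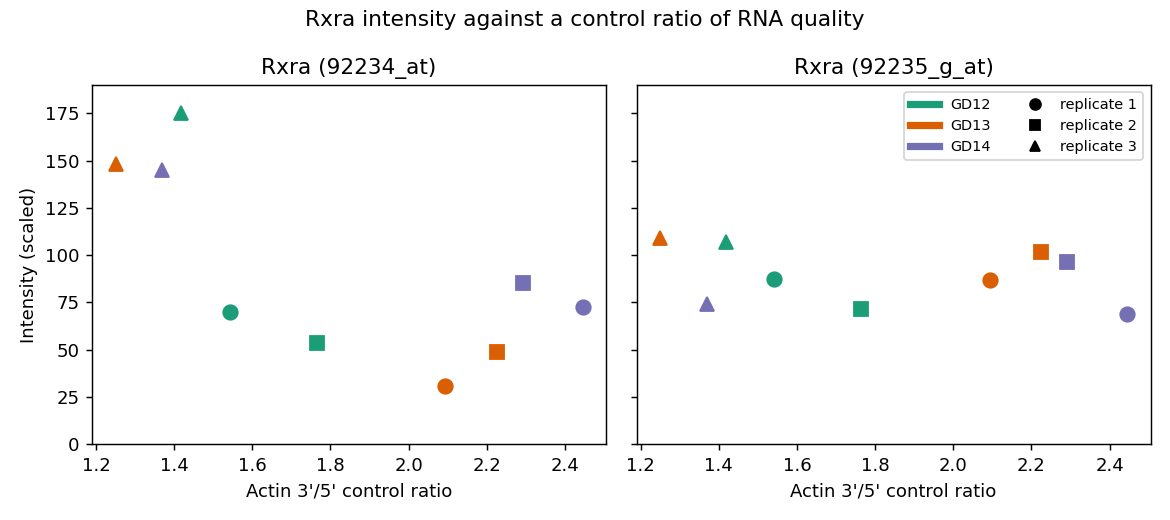
Scaled intensity of both Rxra probe sets (vertical axis, from 0) against the ratio of 3′ to 5′ actin control signal of the same array (horizontal axis); colours are days and symbols replicate numbers. The 3 replicate 3 arrays have the lowest ratios of their days, and for 92234_at they lie at 145 to 175, above the other 6 arrays.

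Whether the second daily step (GD13 to GD14) differed from the first was tested in the same fit. No member passed, and 0% of all probe sets did. At an unadjusted p under 0.05, 2 of the 11 probe sets had a second step below the first, Aldh1a1 (100068_at) and Crabp1, and 0 had one above it. Of all 9316 probe sets tested, 226 were higher and 227 lower. Counted by the brightest probe set of each gene, 2.45% of all 6861 genes tested were higher and 2.38% lower. The log2 difference of the steps was -0.77 for Aldh1a1 (adjusted p = 0.957 by limma) and -1.04 for Crabp1 (adjusted p = 0.951). For Aldh1a1 both steps were upward, and for Crabp1 the first step was 0.29 and the second -0.75.

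Across the 9 arrays, Aldh1a1 (100068_at) correlated at -0.94 with Aldh1a2, 0.90 with Aldh1a7 and 0.87 with Rbp4, and Crabp1 at 0.80 with Crabp2. These are descriptions over arrays that share 3 days, so any pair of genes that change with day correlates. Among 8373 other probe sets with 1 symbol, those most like Aldh1a1 were of Ogn (r = 0.997), Cav1 (0.995) and Alpl (0.993). Ogn encodes a small matrix proteoglycan, Cav1 a membrane protein of caveolae and Alpl the alkaline phosphatase of mineralising tissue. For Aldh1a2 they were Ddah2, Hmgb3 and Fen1 (r = 0.970, 0.968 and 0.968), Fen1 being a nuclease of DNA replication. For Rbp4 they were Prnp, Cebpa and Syngr2 (r = 0.984, 0.979 and 0.978), Prnp encoding the prion protein and Cebpa a transcription factor of fat and liver cells.

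Ogn (160877_at) had intensities of 206, 229 and 219.5 on GD12, then 489, 450.0 and 443 on GD13, then 830.1, 737 and 876 on GD14. Like Aldh1a1 it separated all 3 days. No function or control in common follows from such a likeness.

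Further genes of the pathway passed at about the share of all genes. Of 84 such genes in 4 lists, 55 had a probe set with a single symbol and 46 were tested, each by its brightest probe set. Between GD14 and GD12, 2 of the 46 rose, 0 fell and 44 did not pass (4.35% called), against 248 that rose and 68 that fell among all 6861 genes tested (4.61% called). In both daily steps 0 of the 46 passed limma, where 0.729% of all genes passed between GD13 and GD12 and 0.0437% between GD14 and GD13. At an unadjusted p under 0.05, 3 of the 46 (6.52%) were higher and 4 (8.70%) lower between GD13 and GD12, against 7.04% higher and 4.34% lower of all genes. Between GD14 and GD13, 3 (6.52%) were higher and 1 (2.17%) lower, against 5.01% and 2.43% of all genes.

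Among 13 tested enzymes of synthesis, storage and breakdown, Adh1 rose. Adh1 encodes an alcohol dehydrogenase that can oxidise retinol, the step before the Aldh1a enzymes. Its probe set 94906_at had 14.2, 9.1 and 9.9 on GD12, then 15.2, 13.0 and 13.1 on GD13, then 23.9, 19.9 and 30.5 on GD14. The 3 GD14 arrays lay above all others, and the log2 difference between GD14 and GD12 was 0.98 (SE 0.20, adjusted p = 0.0273 by limma). Without GD12 replicate 2 the adjusted p was 0.0935.

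Among 6 tested genes of carriers and uptake, Scarb1 rose, which encodes a scavenger receptor that takes up lipids and carotenoids. Probe set 100095_at had 134, 144 and 109 on GD12, then 182, 182 and 231 on GD13, then 246, 252 and 231 on GD14. GD12 lay below both later days, and the log2 difference between GD14 and GD12 was 0.91 (SE 0.17, adjusted p = 0.0185 by limma). Without GD14 replicate 1 the adjusted p was 0.0742.

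None of 8 other receptors and partner proteins passed between GD14 and GD12. With the replicate block 1 of them, the corepressor gene Nrip1, did (log2 -0.76, adjusted p = 0.0305 with the block and 0.102 without it by limma), and likewise between GD13 and GD12 (log2 -0.98, 0.0476 with the block and 0.115 without it). It is named after its values were seen. Of 19 tested genes known to respond to retinoic acid, 0 passed limma in any comparison, at the background shares just given. At an unadjusted p under 0.05, 2 (10.5%) were higher and 1 (5.26%) lower between GD14 and GD12, against 11.5% and 7.19% of all genes. Their median log2 difference between GD14 and GD12 was 0.03, against -0.01 for all genes tested.

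**Figure D5:**
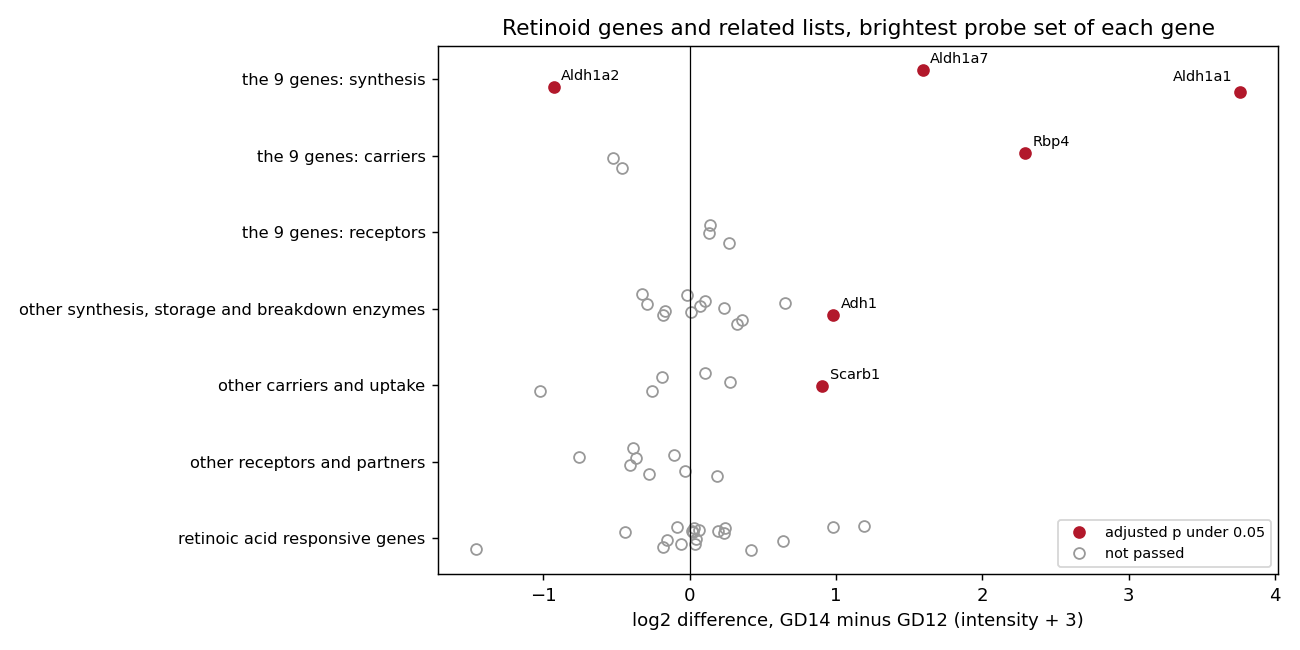
Difference in log2(intensity + 3) between GD14 and GD12 (horizontal axis) for the 9 genes by role and for 46 further genes of the pathway, 1 point a gene by its brightest probe set; filled points had an adjusted p under 0.05. Aldh1a1 lies farthest right at 3.76, and Adh1 and Scarb1 are the filled points among the further genes.

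The identity of the tissue was checked with 14 marker genes of orofacial mesenchyme and oral epithelium. They summed to 4005 to 4664 on GD12, 3592 to 3705 on GD13 and 3376 to 3530 on GD14, while the epithelial keratin genes Krt5 and Krt14 did not pass the filter on low values. Of the 12 tested, Msx1 fell between GD14 and GD12 (adjusted p = 0.0142 by limma, and 0.0664 without GD14 replicate 1). With the replicate block Alx4 fell too (log2 -0.67, adjusted p = 0.0369 by limma, against 0.506 without it). The sum of 15 neuron markers was 1995 to 4016 on GD12, 1565 to 2408 on GD13 and 1488 to 2201 on GD14, lowest on the replicate 3 array of each day. Between GD14 and GD12, 1 of 12 neuron genes tested, Mapt, fell (adjusted p = 0.0319 by limma, and 0.111 without GD12 replicate 1). With the replicate block 4 of 12 fell, the others being Elavl4 (log2 -1.95, adjusted p = 0.00306), Ina (-1.16, 0.0168) and Stmn2 (-0.72, 0.0319). Each gene stood by its brightest probe set. With the block, the other probe sets had -0.72 (0.0716) for Ina, -0.28 (0.722) and -0.96 (0.0384) for Mapt, and -0.32 (0.244) and 0.67 (0.238) for Stmn2. No marker gene of these lists was listed at 0 on every array of a day. The part of these shifts in the results for the 9 genes was not tested.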

How the data were processed

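Each array gave 1 value per probe set, deposited by the authors as a linear intensity already scaled between arrays, as the values show; array medians were 47.15 to 56.95. The software and steps behind them are not given in the sources used here. Gene names came from the array's annotation, and 10817 of 10833 single-symbol probe sets were matched to the GRCm38.p6 gene table. Of 12488 probe sets, 66 controls were left out, as were those with a mean log2(intensity + 3) at or under the 25th percentile (an intensity of 10.4). The remaining 9316, including all 11 of the 9 genes, were fitted with limma 3.58.1 in R 4.3.3 (3 day means, 6 residual and 2.85 prior degrees of freedom), with Benjamini-Hochberg adjustment. The procedure was tested on simulated data with independent noise on each array. That simulation does not cover the correlation between arrays of the same replicate number given below. Python 3.11.15, numpy 2.4.6, pandas 2.3.3 and matplotlib 3.10.9 made tables and plots. There is no read depth on an array; having 3 of them a day limits the precision.

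Arrays sharing a replicate number had residual correlations of 0.19 to 0.42, and other pairs -0.29 to -0.02. Every same-number pair was above 0.1, so numbers from the titles were taken to pair arrays. The fit without the block was kept as main, and the block is given where it changed a call (for listed genes, of the brightest probe set) or moved a count by over 1.5 times.

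Genes named were the 9 genes, listed genes that passed in a pairwise comparison, and the 3 probe sets most correlated with Aldh1a1, Aldh1a2 and Rbp4; exceptions are stated. Members and lists were chosen with earlier results of these data known. Alternatives were quantile and median scaling, adding 1 or 11 in place of 3, testing without the filter or with one at the median, trend with robust variances, array weights, the replicate block alone or with the actin control ratio, only the 2 days compared, and omission of each array.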

Additional observations from a re-analysis of the deposited data

How the results depend on the processing

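Direction reversed for none of the called values under any alternative run. Between GD14 and GD12, 4 of the 11 probe sets passed, against 2 with the filter at the median, which left out the Aldh1a7 and Rbp4 probe sets before testing, 1 with the actin control ratio and the replicate block, 2 with only the 2 days compared and 1 to 4 with an array left out (2 without GD14 replicate 1, 1 without GD14 replicate 2). Between GD13 and GD12, 1 passed, against 2 with array weights, where Aldh1a7 was added (log2 1.52, adjusted p = 0.0288 by limma), and 1 in every omission. Between GD14 and GD13, 1 passed, against 0 without the filter, 0 with the actin ratio and block, 0 with only the 2 days, and 0 to 1 with an array left out (0 in 7 of the 9 omissions, all but GD12 replicates 1 and 3). The replicate block alone changed no call of the 11 probe sets. Fits with fewer arrays have fewer residual degrees of freedom, and so do fits with the replicate block or the actin control ratio added. The cause of the losses was not tested.

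Over all probe sets, 401 passed between GD14 and GD12, against 617 with array weights, 621 with the block, 94 with actin ratio and block, 227 with only the 2 days, and 178 to 394 with an array left out (lowest without GD14 replicate 1). Between GD13 and GD12, 60 passed, against 35 without the filter, 94 with the median filter, 115 with trend and robust variances, 201 with array weights, 15 with actin ratio and block, 31 with only the 2 days, and 17 to 59 in omissions (lowest without GD13 replicate 1). Between GD14 and GD13, 4 passed, against 2 after quantile normalisation, 2 with 1 added, 16 with 11 added, 0 without the filter, 19 with the median filter, 26 with trend and robust variances, 11 with array weights, 0 with actin ratio and block, 2 with only the 2 days, and 0 to 4 in omissions. The step difference had 0, against 2 with the median filter, 2 with trend and robust variances, and 1 each with array weights, the block, and actin ratio and block. GD12 means were low for Aldh1a1 (100068_at, 12.4), Aldh1a7 (19.6) and Rbp4 (17.9), against the filter intensity of 10.4. Their folds on GD14 relative to GD12 were smaller with 11 added than with 1 added.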
